A study of Mus musculus with 6 samples.

Results

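The ephrin, netrin and Slit guidance genes were taken by gene symbol, with earlier results of these data known. The set held every A-class and B-class ephrin (Efna, Efnb) and Eph receptor (Epha, Ephb) in the table. It also held every netrin (Ntn), netrin-G (Ntng), UNC5 receptor (Unc5a to Unc5d), Slit, Robo and Dcc. This gave 40 of 45777 genes, 17 ligands and 23 receptors. The netrin-Gs, membrane proteins that bind ligands of their own, were counted with the netrins as ligands. They were measured by RNA sequencing of 6 samples from cultured dorsal root ganglion (DRG) neurons, the sensory neurons beside the spinal cord, from C57BL/6 wild-type female mice aged 8 weeks, per the labels. The PBS group of 3 samples received saline as the negative control. The ONCM group of 3 samples received recombinant oncomodulin (a calcium-binding protein of the parvalbumin family) for 12 h at 100 ng/ml. The comparison asked which transcript levels differ with oncomodulin. The labels call the 3 samples of each group biological replicates but name no animals or cultures behind them, so each p-value reflects only how these samples spread, and what separates them is not known here.

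Guidance molecules steer axons by attraction or repulsion at the growth cone. Ephrins sit on the surface of one cell and bind Eph receptor tyrosine kinases on the next. A-class ephrins are held by a lipid anchor, B-class ephrins span the membrane and can signal back into their own cell. Secreted netrins attract through DCC and repel through UNC5 receptors, the lipid-anchored netrin-Gs bind a separate set of leucine-rich repeat ligands, and secreted Slits repel through Robo receptors. In adult sensory ganglia several of these genes remain active in neurons, glia and vessels.

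Library totals ran from 53770820 to 64477014 counts. Neuronal genes dominated the marker lists, with 9 pan-neuronal genes summing to 14549 to 15039 CPM (counts scaled to library size and composition) in the PBS libraries and 14234 to 15167 CPM in the ONCM libraries. Of these 9 genes 6 fell and 2 rose. Other cells were present. Schwann cell markers summed to 3478 to 3543 CPM with PBS and 3589 to 3758 CPM with ONCM, and satellite glia markers to 1877 to 1940 and 1971 to 2110 CPM. Of the 8 Schwann cell markers 4 rose, 1 fell (S100b, log2 fold change -0.38) and 3 did not pass. Of the 6 satellite glia markers 2 rose and 4 did not pass. Mean Glul rose from 262 to 415 CPM, while mean Apoe was 1413 and 1345 CPM and did not pass. Fibroblast markers rose in 4 of 6 cases (296 to 300.1 against 429 to 449 CPM), endothelial markers in 4 of 7 (138 to 141 against 159 to 165 CPM) and macrophage markers in 10 of 10 (40.9 to 46.6 against 153 to 160.1 CPM). Mural cell markers fell in 3 of 6 cases (146 to 147 against 106 to 108 CPM). No marker was at 0 in all libraries. Although every sample is labelled female, Xist was 0.485 to 0.588 CPM with PBS and 413 to 513 CPM with ONCM, and the Y-linked Ddx3y was 58.1 to 62.4 against 15.1 to 16.9 CPM. Treatment and source cells therefore cannot be told apart for any gene below.

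The guidance genes shifted downward more often than upward. Of the 40 genes 39 had enough counts to be tested. By edgeR's quasi-likelihood test, at a Benjamini-Hochberg adjusted p under 0.05 over all 20354 tested genes, 7 rose and 15 fell, and 17 did not pass. The shares were 17.9% rising and 38.5% falling, beside 23.9% and 24.4% of all tested genes. The share passing in either direction was 56.4% against 48.3%. The median log2 fold change was -0.14 for the 39 genes and -0.0021 for all tested genes. Among the 17 ligand genes 3 rose, 7 fell and 7 did not pass. The ligand falls include the 2 netrin-G genes, which are grouped here with the netrins by name. Among the 22 tested receptor genes 4 rose, 8 fell and 10 did not pass. Changes of at least 0.5 on the log2 scale were seen in 8 of 39 (20.5%), 3 upward and 5 downward, close to the 19.2% of all tested genes. The groups did not overlap for 25 of the 39 genes (64.1%), against 55.6% of all tested genes. By limma on the log2(TPM + 1) scale 5 guidance genes rose and 15 fell, and 39.3% of all calls were rises against 49.5% on counts. Counts were not separated by cell type, and in bulk RNA fewer cells of a type and less RNA per cell cannot be told apart.

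**Figure D1:**
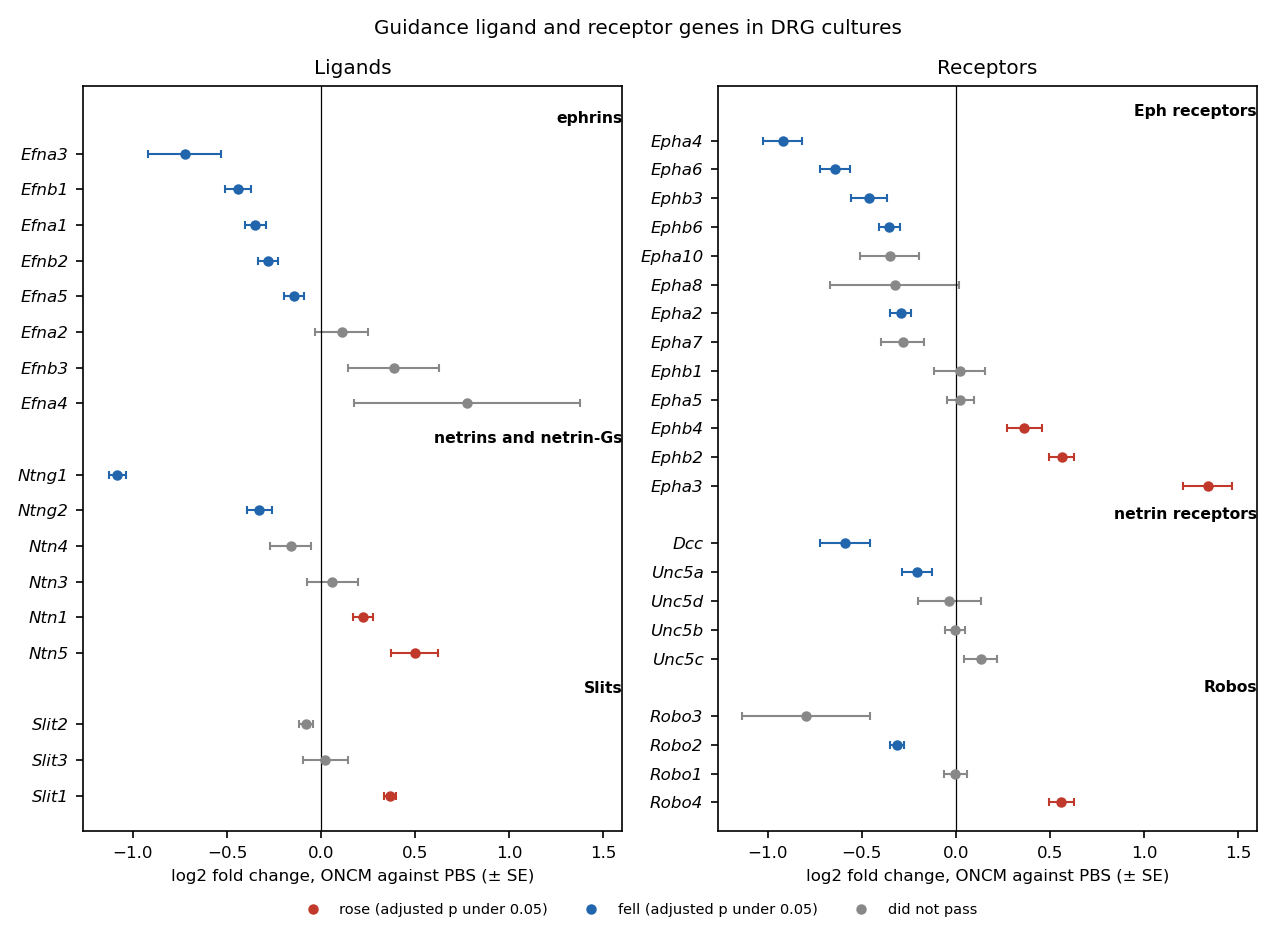
Log2 fold change of ONCM against PBS (x axis, ± SE) for the 17 ligand genes and 22 tested receptor genes, grouped by family and coloured by call. Ntng1 lies lowest at -1.08 and Epha3 highest at 1.34, and 5 of the 8 ephrins lie below 0 with a call.

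The largest receptor changes went in opposite directions in a pair of A-class Eph receptors, Epha3 and Epha4. Their promoters are shown because these genes moved furthest apart. They come from RefSeq (build GRCm38.p6), read 5′ to 3′ on the minus strand toward the transcription start, and end where the annotated gene begins. Capitals mark a STAT site (letters TTCNNNGAA) or a GC box (letters GGGCGG).
Epha3, chr16:63864176-63864425: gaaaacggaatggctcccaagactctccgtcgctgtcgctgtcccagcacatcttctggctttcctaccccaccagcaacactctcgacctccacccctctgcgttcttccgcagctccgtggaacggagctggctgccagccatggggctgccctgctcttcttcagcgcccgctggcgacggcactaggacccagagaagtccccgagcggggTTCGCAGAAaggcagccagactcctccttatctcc
Epha4, chr1:77515108-77515338: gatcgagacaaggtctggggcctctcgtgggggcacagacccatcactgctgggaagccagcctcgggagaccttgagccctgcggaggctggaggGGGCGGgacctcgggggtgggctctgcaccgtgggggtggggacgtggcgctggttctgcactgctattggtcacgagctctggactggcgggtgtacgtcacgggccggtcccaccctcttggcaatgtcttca
The match in Epha3 lies 35 to 27 bases before the end of the printed stretch and that in Epha4 135 to 130 bases before its end. Promoters of 35 of the 40 genes were in the RefSeq table, as 40 windows of 250 bases before a start. The table lacked Dcc, Efnb3, Ntn1, Slit1 and Unc5d. On both strands, STAT sites were found in 2 of these 40 windows (Epha3 and Efna3, 5%) and in 7.02% of 32851 windows of all genes. GC boxes were found in 27 (67.5%) against 32.7%. AP-1 sites (TGANTCA) were found in 0 against 6.75%, cyclic AMP response elements (TGACGTCA) in 1, Epha2, against 1.55%, and TATA boxes (TATAAA) in 2, Efnb2 and Slit2, against 12.4%. The windows were rich in G and C, with a median of 64.6% against 52.4% for all genes. A match describes the letters only.

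Expression of the guidance genes spanned a wide range. Levels were compared between genes as TPM (deposited values adjusted for gene length). The Slit1 gene was the highest with PBS at 65.9 ± 5.7 TPM (SD, n = 3), followed by its receptor gene Robo2 at 40.7 ± 2.65 TPM and by Efna1 at 33.7 ± 0.724 TPM. Ntng2 (29.1 ± 1.7 TPM), Ntng1 (20.4 ± 1.35 TPM), Epha2 (18.9 ± 0.545 TPM) and Ephb6 (17.2 ± 0.412 TPM) came next. The spreads of Robo2 and Efna1 did not meet, whereas those of Ntng1 and Epha2 did. Dcc was low at 0.933 ± 0.0551 TPM, and Epha1 was counted 10 times in ONCM library 1 and 0 times in the other 5, too few to test. A floor of 3 counts corresponds to 0.0465 to 0.0558 CPM in these libraries, which covers counting error only. Efna4, Epha8 and Robo3 also stayed below 0.6 CPM in every library.

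**Figure D2:**
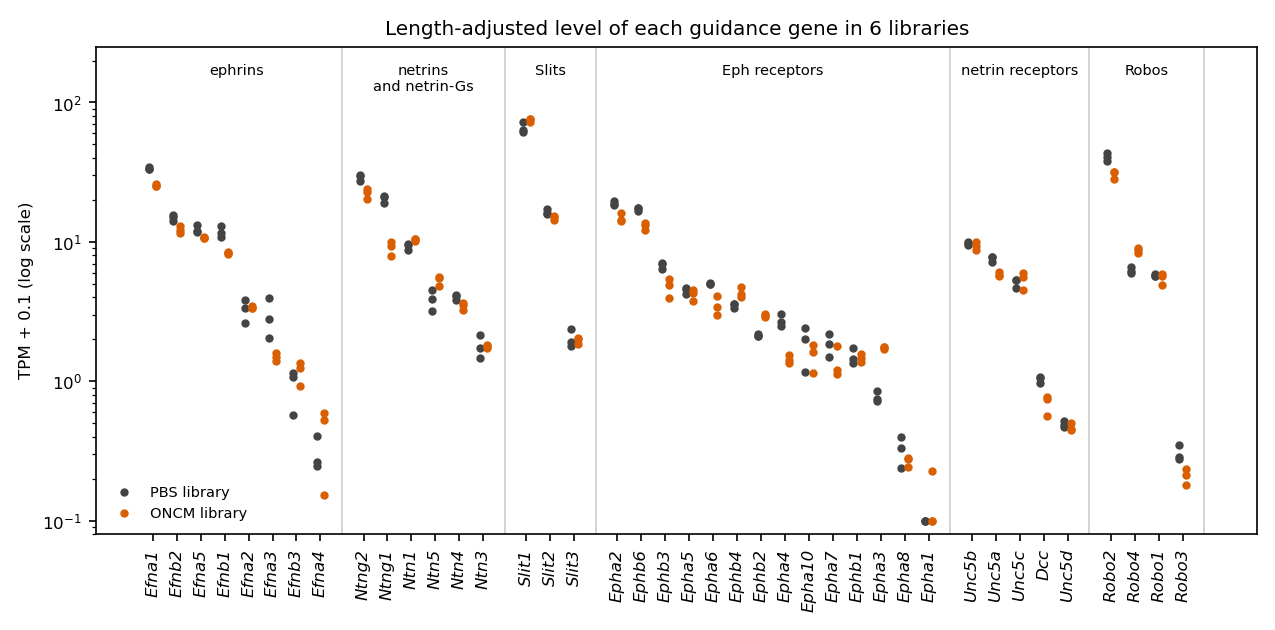
TPM plus 0.1 on a log scale (y axis) for all 40 guidance genes in 3 PBS and 3 ONCM libraries, ordered within each family by mean level. Slit1 and Robo2 are the highest of their families, and Epha1 lies at the bottom with a value above 0 in 1 library.

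Ephrin ligand genes fell or did not pass. Of 8, 5 fell (62.5%, against 24.4% of all tested genes) and 0 rose. None rose either at an unadjusted p under 0.05 (0 by edgeR) or with DESeq2 (0). Efna2, Efna4 and Efnb3 had log2 fold changes of 0.11, 0.77 and 0.39 and did not pass (edgeR adjusted p = 0.559, 0.312 and 0.206). Efna1, the ephrin gene with the highest TPM and a ligand of EphA2, was 19.3, 19.5 and 20.3 CPM in the PBS libraries and 15.7, 15.1 and 15.5 CPM in the ONCM libraries. All ONCM values lay below all PBS values, and it fell by 0.35 on the log2 scale (SE 0.06, edgeR adjusted p = 4.01e-05). Efna3, on the same stretch of chromosome 3 as Efna1 and Efna4, was 2.64, 1.93 and 3.62 CPM with PBS and 1.62, 1.47 and 1.88 CPM with ONCM. It fell by 0.72 (SE 0.19, edgeR adjusted p = 0.00498), and its PBS libraries spread more than those of Efna1. Without PBS replicate 3, its highest library, the Efna3 value was -0.48 (adjusted p = 0.0466). Efna5, a repellent of the EphA system in topographic mapping, fell slightly, from 25.3 ± 1.47 to 22.9 ± 0.375 CPM (SD, n = 3 per group, edgeR adjusted p = 0.0342). The Efna5 call was lost with DESeq2 (adjusted p = 0.111) and without PBS replicate 2, ONCM replicate 1 or ONCM replicate 2 (adjusted p = 0.163, 0.076 and 0.0939).

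Both well-counted B-class ephrins fell. Efnb2, the ephrin of arterial vessels and of reverse signalling in neurons, was 32.2, 29.1 and 30.0 CPM with PBS and 25.7, 25.1 and 24.3 CPM with ONCM. Its groups did not overlap, and it fell by 0.28 (SE 0.05, edgeR adjusted p = 1.46e-04). Efnb1, a ligand of EphB receptors encoded on chromosome X (99136061 to 99149022), went from 15.5 ± 1.4 to 11.4 ± 0.105 CPM, a fall of 1.36-fold (edgeR adjusted p = 4.01e-05). Efnb1 was the only X-linked guidance gene, and Xist differed between the same libraries. The part of the source cells in this value was not tested.

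Of 13 tested Eph receptor genes 3 rose, 5 fell and 5 did not pass. The rising share of 23.1% was near the 23.9% of all tested genes, and the falling share was 38.5% beside 24.4%. Among A-class receptors Epha3 alone rose, while Epha2, Epha4 and Epha6 fell. Epha3 (chromosome 16, 63543532 to 63864175), a receptor for A-class ephrins that is also made by mesenchymal cells, was 1.39, 1.47 and 1.73 CPM in the PBS libraries and 3.89, 3.86 and 3.85 CPM in the ONCM libraries. The ONCM libraries were almost identical and all lay above PBS, a rise of 2.53-fold (log2 fold change 1.34, SE 0.13, edgeR adjusted p = 1.01e-07). Fibroblast markers, whose sum was 296 to 300.1 CPM with PBS, summed to 429 to 449 CPM in the same ONCM libraries. Within that sum mean Dcn rose from 144 to 255 CPM. Lum, Col1a1 and Col3a1 rose by 0.94, 0.36 and 0.32 on the log2 scale. Col1a2 and Pdgfra did not pass (log2 fold change 0.094 and 0.086, edgeR adjusted p = 0.0546 and 0.435). The part of the fibroblast markers in the Epha3 value was not tested. Epha4 (chromosome 1, 77367182 to 77515107), which binds ephrins of both classes and is known for restraining axon growth, was 6.37, 7.38 and 6.11 CPM with PBS and 3.74, 3.43 and 3.33 CPM with ONCM. Every ONCM library was below every PBS library, a fall of 1.89-fold (log2 fold change -0.92, SE 0.10, edgeR adjusted p = 7.09e-07).

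Epha6, an A-class receptor of the nervous system, had the highest CPM of the Eph genes, at 39.5, 39.0 and 39.4 CPM with PBS. It stood at 26.3, 28.1 and 21.2 CPM with ONCM, with no overlap and the lowest value in ONCM library 3 (log2 fold change -0.64, SE 0.08, edgeR adjusted p = 2.72e-05). Adjusted for gene length, Epha6 was not the highest. Its mean with PBS was 4.93 TPM, below Epha2, Ephb6 and Ephb3 (18.9, 17.2 and 6.7 TPM). Epha2, the main receptor of ephrin-A1 on epithelia and glia, was 30.0, 28.6 and 29.2 CPM with PBS and 23.1, 22.4 and 26.2 CPM with ONCM. It fell by 0.29 (SE 0.06, edgeR adjusted p = 3.48e-04). In these libraries Epha2 and its ligand gene Efna1 were thus both lower with ONCM. Epha5, a receptor of ephrin-A5, was level at 11.1 ± 0.483 and 11.3 ± 0.76 CPM (log2 fold change 0.02, SE 0.07). Epha7 fell just short of the threshold (3.68 ± 0.103 to 3.03 ± 0.267 CPM, edgeR adjusted p = 0.0505), and its groups did not overlap. Epha10, whose kinase domain is inactive, had a log2 fold change of -0.35 and Epha8 of -0.32 (edgeR adjusted p = 0.073 and 0.47).

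Of 5 B-class Eph receptor genes 2 rose (40%, beside 23.9% of all tested genes), 2 fell (40%, beside 24.4%) and 1 did not pass. Ephb2, which clusters glutamate receptors at synapses and guides commissural axons, was 8.89, 8.63 and 8.81 CPM with PBS and 12.6, 12.9 and 13.4 CPM with ONCM. The groups were well apart, a rise of 1.48-fold (log2 fold change 0.56, SE 0.07, edgeR adjusted p = 1.28e-06). Ephb4, the venous receptor for ephrin-B2, rose 1.29-fold from 5.87 ± 0.258 to 7.57 ± 0.799 CPM (0.37 on the log2 scale, SE 0.09, edgeR adjusted p = 0.00312). The Ephb4 call was lost on the log2(TPM + 1) and log2(TPM + 0.1) scales (0.24 and 0.29, limma adjusted p = 0.0518 and 0.0527). Ephb6, which lacks kinase activity, was 25.7, 26.5 and 25.0 CPM with PBS and 20.4, 18.7 and 21.5 CPM with ONCM. It fell by 0.35 (SE 0.06, edgeR adjusted p = 5.3e-05). Ephb3 fell as well, from 10.9 ± 0.537 to 7.94 ± 1.23 CPM (edgeR adjusted p = 5.49e-04), and Ephb1 was level at 2.61 ± 0.345 and 2.66 ± 0.199 CPM.

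**Figure D3:**
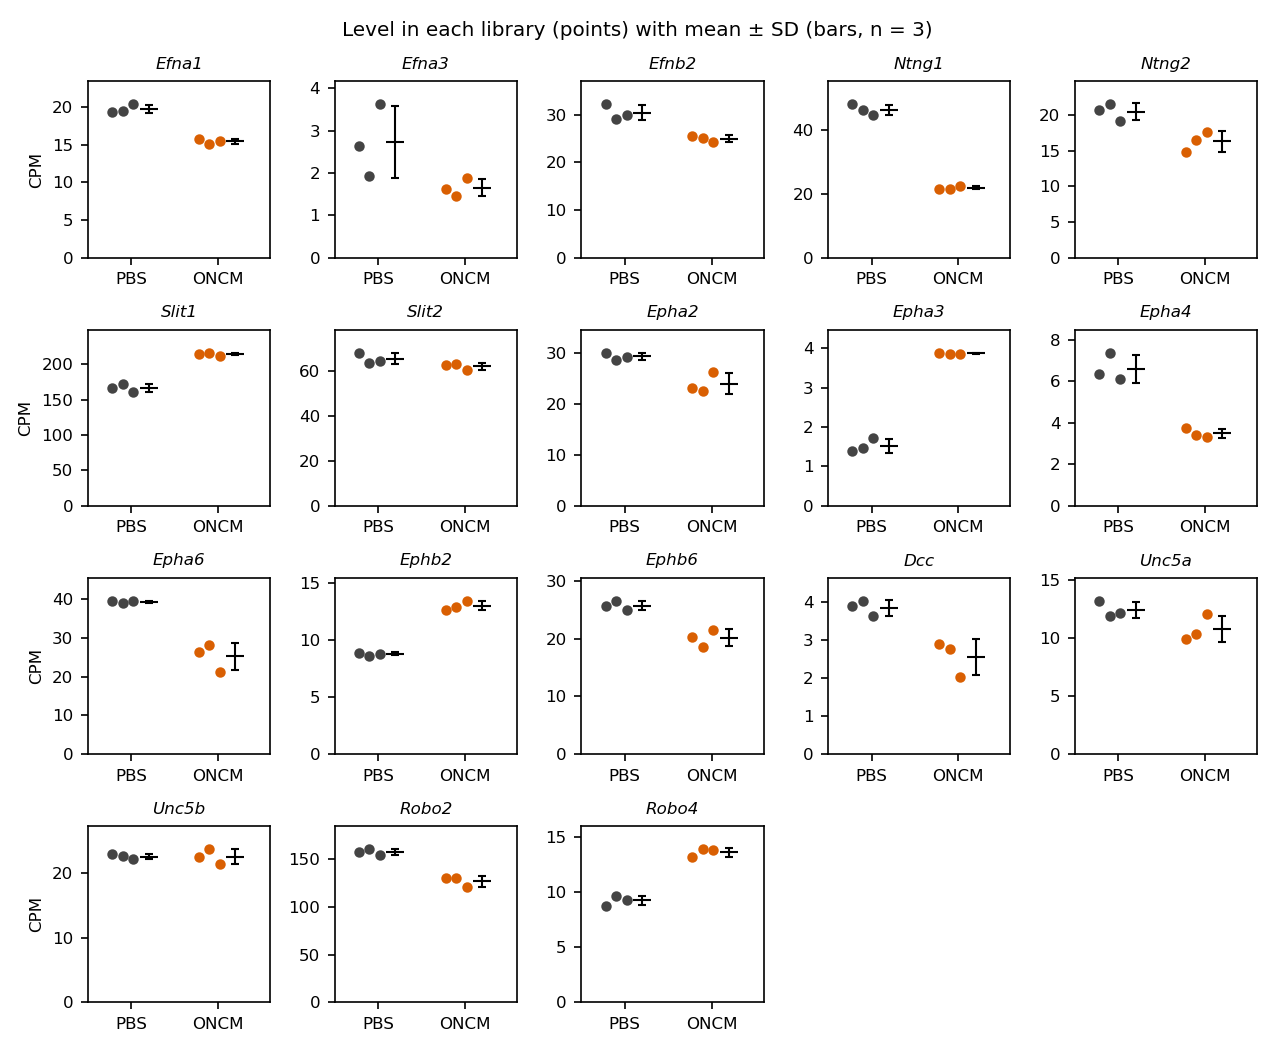
CPM in each of the 3 PBS and 3 ONCM libraries (points) with mean ± SD beside them, for 18 guidance genes, each on its own axis from 0. Ntng1, Epha4, Epha6 and Robo2 lie lower in every ONCM library, Epha3, Ephb2, Robo4 and Slit1 higher, and Slit2, Unc5a and Unc5b differ little.

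Of the 6 netrin and netrin-G genes 2 rose (33.3%, beside 23.9% of all tested genes) and 2 fell (33.3%, beside 24.4%). The falls were the netrin-G genes Ntng1 and Ntng2, and the rises the secreted netrins Ntn1 and Ntn5. Ntng1 (chromosome 3, 109780050 to 110149972) encodes netrin-G1, an axonal membrane protein that organises synaptic contacts. It was 48.1, 46.4 and 44.9 CPM in the PBS libraries and 21.7, 21.7 and 22.5 CPM in the ONCM libraries. This was the largest fall among the guidance genes, 2.12-fold with no overlap (log2 fold change -1.08, SE 0.05, edgeR adjusted p = 8.22e-13). Ntng2 was 20.8, 21.5 and 19.2 CPM with PBS and 14.8, 16.5 and 17.7 CPM with ONCM, again without overlap (-0.33, SE 0.07, edgeR adjusted p = 5.21e-04). The genes for their trans-synaptic partners fell too, and were singled out after their values were seen. Lrrc4c, whose product binds netrin-G1, went from 10.7 ± 0.769 to 7.68 ± 0.43 CPM. Lrrc4, whose product binds netrin-G2, went from 5.71 ± 0.0788 to 3.78 ± 0.463 CPM, with edgeR adjusted p = 6.68e-05 and 1.24e-04. Of the 9 pan-neuronal markers Snap25, Rbfox3, Elavl4, Nefl, Isl1 and Pou4f1 fell, Tubb3 and Uchl1 rose 1.74-fold and 1.18-fold, and Prph did not pass (log2 fold change -0.02). Their summed level overlapped between the groups, at 14549 to 15039 CPM with PBS and 14234 to 15167 CPM with ONCM. Within that sum mean Nefl fell from 7025 to 5469 CPM and mean Tubb3 rose from 2074 to 3618 CPM. The sum therefore hides changes of single markers. The part of these markers in the netrin-G values was not tested.

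Ntn1, the founding secreted netrin and an attractant of DCC-bearing axons, rose 1.17-fold from 20.8 ± 1.17 to 24.3 ± 0.577 CPM (0.22 on the log2 scale, SE 0.05, edgeR adjusted p = 0.00237). Every ONCM library lay above every PBS library. On the log2(TPM + 1) and log2(TPM + 0.1) scales the values were 0.15 and 0.16 and did not pass (limma adjusted p = 0.0885 and 0.0797). Ntn5 rose 1.41-fold from 3.1 ± 0.522 to 4.39 ± 0.26 CPM (SE 0.13, edgeR adjusted p = 0.0032). Its span overlaps Sec1, which rose by 0.67 on the log2 scale, and reads of overlapping genes may be shared. Ntn3 and Ntn4 had log2 fold changes of 0.06 and -0.16 and did not pass.

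Of 5 netrin receptor genes 2 fell, 0 rose and 3 did not pass. The share passing in either direction was 40%, below the 48.3% of all tested genes, and Unc5a, one of the falls, lost its call in 6 alternatives. The count of rises was also 0 by edgeR at an unadjusted p under 0.05 and 0 with DESeq2. Dcc, the attractive receptor on chromosome 18, was 3.88, 4.02 and 3.62 CPM with PBS and 2.88, 2.75 and 2.02 CPM with ONCM. All ONCM libraries were lower than PBS (log2 fold change -0.59, SE 0.13, edgeR adjusted p = 0.00134). Unc5b, a repulsive receptor also found on vessels, was 22.9, 22.6 and 22.1 CPM with PBS and 22.4, 23.7 and 21.4 CPM with ONCM, so the groups overlapped (edgeR adjusted p = 0.982). Unc5a, a neuronal repulsive receptor, was 13.2, 11.9 and 12.2 CPM with PBS and 9.93, 10.3 and 12.1 CPM with ONCM. Its groups overlapped, and the fall of 0.20 on the log2 scale passed narrowly (SE 0.08, edgeR adjusted p = 0.0411). The Unc5a call was lost with the replicate number as a block (adjusted p = 0.0528), with DESeq2 (adjusted p = 0.147), and without PBS replicate 1, PBS replicate 3, ONCM replicate 1 or ONCM replicate 2 (adjusted p = 0.161, 0.0584, 0.171 and 0.14). The Unc5a span overlaps that of Hk3, a hexokinase gene, which rose by 1.81. Unc5c and Unc5d did not pass, at 0.13 and -0.03. Without ONCM replicate 3, Unc5c passed at 0.24 (adjusted p = 0.00777).

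Slit1 rose while its neuronal receptor gene Robo2 fell. Slit1 (chromosome 19, 41597824 to 41747275), a repellent and branching factor for sensory axons, was 167, 172 and 161 CPM in the PBS libraries and 215, 216 and 212 CPM in the ONCM libraries. The ONCM libraries formed a tight group above PBS (log2 fold change 0.36, SE 0.03, edgeR adjusted p = 2.18e-08). The change in mean was 1.29-fold in CPM and 1.14-fold in the deposited TPM. Slit2, also a Robo ligand, was 68.0, 63.6 and 64.5 CPM with PBS and 62.5, 62.9 and 60.3 CPM with ONCM, lower in each ONCM library but not passing (-0.08, SE 0.04, edgeR adjusted p = 0.0987). Slit3 was level at 3.8 ± 0.598 and 3.85 ± 0.155 CPM.

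Robo2 (chromosome 16, 73891976 to 75447443), the most abundant guidance receptor gene here in both CPM and TPM, was 158, 161 and 155 CPM with PBS and 131, 130.4 and 121 CPM with ONCM. No values overlapped, and it fell by 0.31 on the log2 scale (SE 0.04, edgeR adjusted p = 7.52e-07). Robo1 did not pass, at 19.0 ± 0.574 and 19.0 ± 1.41 CPM. Robo3, the receptor of commissural axons, was under 0.6 CPM throughout and did not pass (-0.79, SE 0.34, edgeR adjusted p = 0.0627). Robo4 (chromosome 9, 37401902 to 37414023), the Robo of endothelial cells, went the other way, from 8.78, 9.67 and 9.27 CPM with PBS to 13.2, 13.9 and 13.8 CPM with ONCM. Its groups did not overlap, a rise of 1.48-fold (edgeR adjusted p = 1.61e-06). The 7 endothelial markers summed to 138 to 141 CPM with PBS and 159 to 165 CPM with ONCM, with Pecam1, Cdh5, Kdr and Emcn raised and Tek, Cldn5 and Egfl7 not passing. Other genes described above as vessel genes did not rise: Efnb2 fell (log2 fold change -0.28) and Unc5b did not pass (-0.0018). The part of endothelial cells in the Robo4, Ephb4, Efnb2 and Unc5b values was not tested.

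Signalling partners and binding partners of these ligands and receptors changed in both directions. Of 76 genes in 3 lists 25 rose (32.9%), 32 fell (42.1%) and 19 did not pass, beside 23.9% and 24.4% of all tested genes. The median log2 fold change of the 76 genes was -0.02. Shares of partners, here and per list, count calls of any size, and most passing partners changed by less than 0.5 on the log2 scale. Those passing with a change of at least 0.5 were Arhgef15, Ngef, Draxin, Lrrc4, Flrt1, Lrrc4b, Sdc3, Usp20 and Nell2. Among all tested genes 19.2% passed with a change of this size, a larger share than among the partners. In the ephrin and Eph list 10 rose (37.0%), 8 fell (29.6%) and 9 did not pass of 27. Arhgef15, which encodes ephexin-5, an activator of RhoA that acts with EphB2 and is abundant in vessels, was 3.87, 3.49 and 3.84 CPM with PBS and 14.4, 13.8 and 15.5 CPM with ONCM. It rose 3.90-fold (log2 fold change 1.96, SE 0.08, edgeR adjusted p = 8.16e-13). Sdcbp and Git1, adaptors of B-class ephrins, rose by 0.29 and 0.34 on the log2 scale. Chn1, the Rac-inactivating effector of EphA4, and Rasa1, a Ras-inactivating partner of EphB receptors, had log2 fold changes of -0.30 and -0.34, with edgeR adjusted p = 1.9e-07 and 1.36e-06.

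In the netrin and DCC list 10 rose (35.7%), 14 fell (50%) and 4 did not pass of 28, beside 23.9% and 24.4% of all tested genes. Draxin, a secreted repellent that binds both netrin-1 and DCC, was 1.16, 1.93 and 1.32 CPM in the PBS libraries and 12.4, 12.5 and 13.1 CPM in the ONCM libraries. This was a rise of 8.67-fold (log2 fold change 3.12, SE 0.13, edgeR adjusted p = 4.86e-13), beyond that of any guidance ligand or receptor tested. Rac1, the small GTPase that drives protrusion, and Myo10, a filopodial motor that carries DCC, rose by 0.27 and 0.30. Ablim1, an actin-binding protein, and Trim67, a DCC-binding ubiquitin ligase, had log2 fold changes of -0.43 and -0.41 (edgeR adjusted p = 1.49e-08 and 4.28e-07).

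In the Slit and Robo list 5 rose (23.8%), 10 fell (47.6%) and 6 did not pass of 21. The rising share was near the 23.9% of all tested genes, and the falling share stood beside 24.4%. Nell2, a secreted ligand of Robo3, was 19.7, 19.5 and 19.6 CPM with PBS and 9.3, 9.48 and 10.4 CPM with ONCM, a fall of 2.02-fold with no overlap (log2 fold change -1.01, SE 0.06, edgeR adjusted p = 1.9e-10). The genes of the heparan sulfate proteoglycans Sdc3 and Gpc1, which can hold Slits at the cell surface, and Hs2st1, a heparan sulfate sulfotransferase, rose 1.57-fold, 1.39-fold and 1.37-fold, with edgeR adjusted p = 1.83e-12, 5.98e-10 and 1.18e-09. Usp20, a deubiquitinase, fell from 202 ± 3.08 to 127 ± 4.46 CPM (edgeR adjusted p = 7.69e-12).

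**Figure D4:**
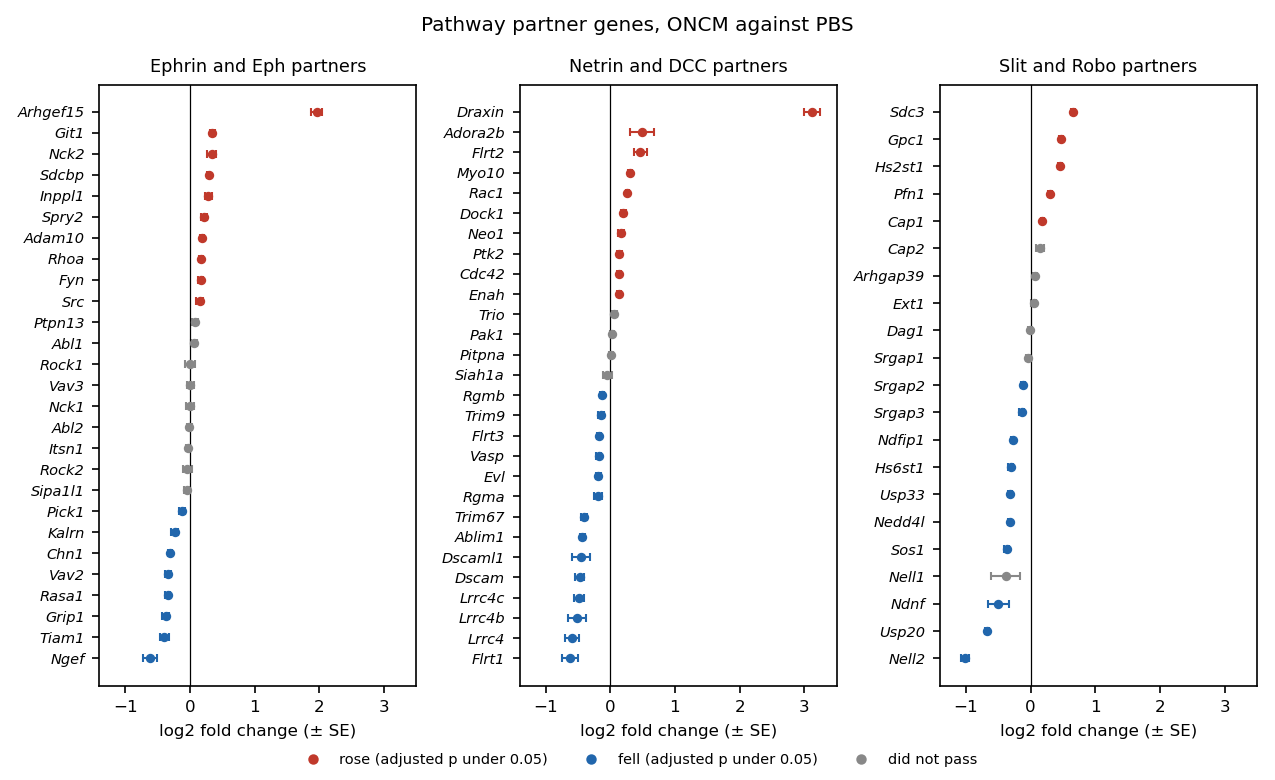
Log2 fold change of ONCM against PBS (x axis, ± SE) for 76 partner genes in 3 lists, coloured by call. Draxin at 3.12 and Arhgef15 at 1.96 stand to the right, and Nell2 at -1.01 is lowest.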

How the data were processed

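Raw read counts per gene, deposited by the authors for 6 libraries, were used for the tests. The TPM columns, also deposited by the authors, served for levels between genes and as an alternative scale. The FPKM columns deposited by the authors were not used here. The submitters' processing notes name the build mm10. Aligner, counter, annotation release and strand handling were "not given in the sources used here". Reads of overlapping or antisense genes may therefore be shared. Another RefSeq gene overlaps the span of 24 of the 40 guidance genes. Columns were assigned by the sample codes in the labels.

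The test was run with edgeR 4.0.16 under R 4.3.3: filterByExpr, TMM scaling, robust quasi-likelihood F-test, no covariate, Benjamini-Hochberg adjustment over 20354 genes, and a call at adjusted p under 0.05. Only passing genes are said to rise or fall. The SE is the size of the log2 fold change divided by the square root of F. Alternatives used limma 3.58.1, DESeq2 1.42.0, other scalings and filters, a replicate block, and each library left out. Replicate pairs differed by more than sampling noise (chi-square per degree of freedom 2.76 to 7.09), so all 6 were kept. The pairs with ONCM replicate 3 gave 7.09 and 6.60, against 3.10 for ONCM replicates 1 and 2. Without ONCM replicate 3 the log2 fold change of Epha6 was -0.53 and that of Dcc -0.45, and both still passed. Coordinates and promoters come from RefSeq tables of GRCm38.p6, matched by gene number.

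The genes and lists were chosen with earlier results of these data known. Values in every library are given for genes that passed with a log2 fold change of at least 0.5 in size and a mean of at least 1 CPM, and for the 2 with the highest TPM in each family. Up to 5 partners per list with the smallest p are named.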

Additional observations from a re-analysis of the deposited data

How the results depend on the processing

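Of the 22 guidance genes that passed, 18 kept their call in all 13 alternatives (for Efnb1, on chromosome X, in those that tested it) and 0 changed direction. The other 4 were Efna5, Unc5a, Ephb4 and Ntn1. Counts of ligand, receptor and partner genes that rose or fell stayed within 1.5 times their values. With one library left out, ligands that rose numbered 3 each time and those that fell 6 to 7, receptors that rose 4 to 5 and receptors that fell 7 to 9. DESeq2 called 7 rises and 13 falls among guidance genes. The median of all genes moved to -0.043 on the log2(TPM + 1) scale.

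Correlations between libraries gave no sign that replicate numbers pair the samples, but 3 libraries per group cannot exclude it. Deviations of same-numbered libraries correlated at -0.045, -0.012 and 0.0017, and no library correlated best with its own number. With the replicate number as a block, 7 guidance genes rose and 14 fell, Unc5a being lost at -0.21. The same fit gave 4733 rises and 4864 falls over all genes, against 4869 and 4960.

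Among guidance genes, 8 near 0 changed sign, none of which had passed. On log2(TPM + 1) and log2(TPM + 0.1) these were Epha5 (-0.077 and -0.094), Slit3 (-0.023 and -0.031) and Ephb1 (-0.019 and -0.028). With RLE scaling Robo1 stood at 0.0029 and Unc5b at 0.0043, and with DESeq2 Unc5b at 0.00060. With one library left out, log2 fold changes ran from -0.033 to 0.23 for Efna2, -0.015 to 0.076 for Epha5, -0.073 to 0.22 for Ntn3, -0.039 to 0.056 for Robo1, -0.073 to 0.15 for Slit3, -0.042 to 0.032 for Unc5b, -0.11 to 0.014 for Unc5d and -0.060 to 0.13 for Ephb1. On log2(TPM + 1), 5 guidance genes that still passed moved by over 1.5 times: Epha3 (0.66), Ephb2 (0.36), Dcc (-0.28), Slit1 (0.18) and Unc5a (-0.34). On log2(TPM + 0.1) Slit1 (0.19) and Unc5a (-0.39) did. Epha10 passed without PBS replicate 3 (-0.51), Epha10 and Epha7 without ONCM replicate 2 (-0.46 and -0.36), and Epha7 without chromosomes X, Y and MT (-0.29, adjusted p = 0.0495). The low counts of Efna4, Epha8 and Robo3 left wide errors (SE 0.60, 0.34 and 0.34), and Epha1 had too few counts to test.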

Other observations

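The deposited TPM gave a lower ONCM to PBS ratio than CPM for 37 of the 39 tested guidance genes, with a median difference of -0.06 in log2 ratio. The same difference was not computed for all genes. By another measure, the median log2 fold change of all tested genes was -0.060 by limma on log2(TPM + 0.1) and -0.0021 by edgeR on counts. Some guidance genes differed more. Efna3 had a log2 ratio of -0.72 in CPM and -1.02 in TPM, Slit1 0.36 and 0.18, Unc5a -0.20 and -0.39, and Epha7 -0.28 and -0.45. Epha6 went the other way, at -0.64 and -0.53. These ratios are of group means and carry no test, and the cause was not tested.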
